A study of Arabidopsis thaliana and Zea mays with 12 samples.

Results

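The nuclear genome of Arabidopsis encodes the factors that start transcription in both organelles, and 9 of these genes are described here, chosen by their gene identifiers from the 27411 genes of the expression table. They are the 6 sigma factor genes SIG1 to SIG6 (AT1G64860, AT1G08540, AT3G53920, AT5G13730, AT5G24120 and AT2G36990) and the 3 genes for phage-type RNA polymerases, RPOTp (AT2G24120), RPOTm (AT1G68990) and RPOTmp (AT5G15700). All 9 were in the table with a value above 0 in both replicates. The study mapped N4-acetyldeoxycytosine in genomic DNA, and the RNA-seq libraries used here gave the expression levels to which that mark was related. RNA came from 2 biological replicates of untreated wild-type Col-0 plants, 3 weeks old and grown at 22 °C, with leaves given as the source tissue. The sources do not say how many plants made up a replicate. The labels call the RNA polyadenylated, and the methods describe removal of ribosomal RNA with an mRNA kit. The 10 other samples of the series, all from genomic DNA, were not analysed here, so the data hold 1 condition and no comparison between conditions.

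Chloroplasts use 2 kinds of RNA polymerase. The plastid-encoded polymerase, PEP, has a bacterial-type core made from plastid genes, and it needs a sigma factor, imported from the cytosol, to find its promoters. Most genes for photosynthesis in the plastid are read by this enzyme in green leaves. The phage-type polymerases resemble the enzyme of bacteriophage T7 and act as single chains without a sigma factor. RPOTp works in plastids, RPOTm in mitochondria and RPOTmp in both, and mitochondrial transcription depends on enzymes of this type.

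The sigma factor genes were all expressed above 1 FPKM (fragments counted on a gene, divided by its exon length in kilobases and scaled to the size of the library), while the polymerase genes were all well below it. This split held in each replicate alone, and the lowest sigma factor value was 4.53 times the highest polymerase value in replicate 1 and 5.39 times in replicate 2. Summed over each family, the 6 sigma factor genes reached 23.6 ± 0.0778 FPKM (SD, n = 2) and the 3 polymerase genes 0.727 ± 0.0240, a ratio of 32.5 ± 1.18. The medians were 3.10 FPKM for the sigma factor genes and 0.286 for the polymerase genes, beside 0.823 over all genes. Of the 9 genes, 6 had a mean above 1 FPKM, where 47.7% of all genes did, and 1 lay in the top 25% of the table. That top class begins at 6.10 FPKM, and it holds 25% of the genes by construction. FPKM divides by exon length, but the median over all genes was still lower in the length range of the polymerase genes (0.352) than in that of the sigma factor genes (1.73). In RNA from whole tissue, expression in fewer cells and less RNA per cell cannot be told apart.

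**Figure D1:**
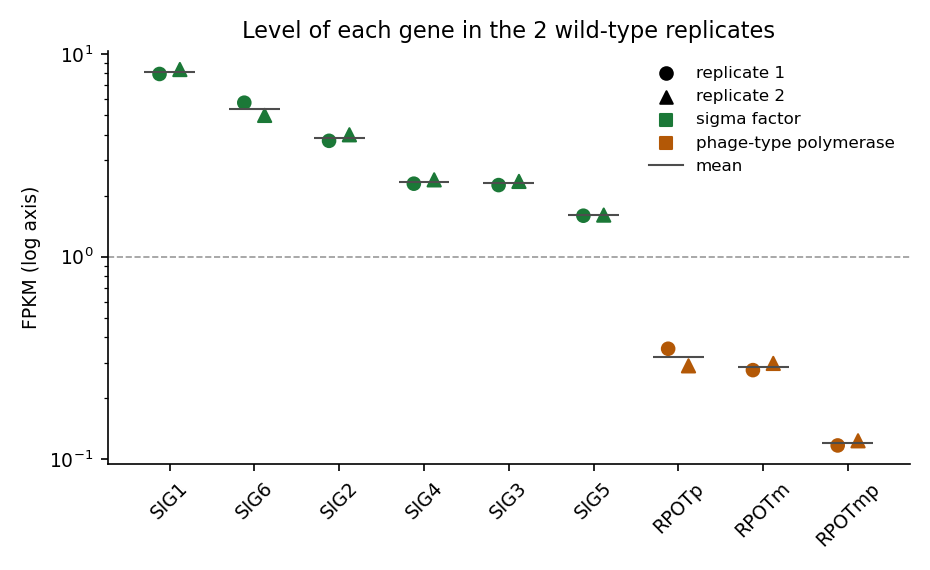
FPKM of each of the 9 genes on a log axis, with replicate 1 as circles, replicate 2 as triangles and their mean as a line. The 6 sigma factor genes (green) lie between 1.59 and 8.37 and the 3 phage-type polymerase genes (orange) between 0.117 and 0.351, on either side of the dashed line at 1 FPKM.

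Because all 9 genes belong to small families, whether their reads can be told from each other bears on every level given here. Within a family, the coding sequences were compared in every pair, 18 pairs in all. The most similar 60 bases found, without a gap and within an exon in both genes, are shown to make the distance between copies visible. Only the few best stretches at each shift of the sequences against each other were checked against exon bounds. A closer stretch may therefore have been missed. Capitals mark the bases that differ. Among the sigma factor genes the closest stretch found was shared by SIG1 and SIG2, with 15 of 60 bases different. That found for SIG2 and SIG3 had as many differences. The SIG1 stretch lies in exon 4 on the plus strand of TAIR10.1 (chr1:24099548-24099607) and the SIG2 stretch in exon 5 on the plus strand (chr1:2705890-2705949). The stretch was not mapped to a region of the protein.
SIG1: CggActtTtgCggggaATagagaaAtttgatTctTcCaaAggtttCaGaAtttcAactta
SIG2: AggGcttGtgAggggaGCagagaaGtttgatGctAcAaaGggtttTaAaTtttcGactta

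The polymerase genes were closer to each other. Aligned over their whole coding sequences, RPOTm and RPOTmp had 70.2% of bases in common, RPOTp and RPOTmp 69.9%, and RPOTp and RPOTm 68.8%. The closest stretch found, in RPOTm and RPOTmp, differed in 8 of 60 bases. It lies in exon 9 of both genes, on the minus strand, at chr1:25937900-25937959 for RPOTm and chr5:5118162-5118221 for RPOTmp.
RPOTm: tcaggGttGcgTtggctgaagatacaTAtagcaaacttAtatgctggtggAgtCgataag
RPOTmp: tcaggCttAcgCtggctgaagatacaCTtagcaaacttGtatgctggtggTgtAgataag

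The longest run of identical coding bases was 23 between RPOTm and RPOTmp, 22 between RPOTp and RPOTm, and 20 between SIG1 and SIG4. No window of 31 bases in the transcript of any of the 9 genes occurred in another of them. Elsewhere in the genome, exact copies of such windows were found for SIG3 (2 windows of 2192), RPOTm (24 of 3644) and RPOTmp (25 of 4270), and for none of the other 6 genes. The RPOTmp windows matched within AT2G45500, and those of SIG3 and RPOTm lay outside annotated genes.

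Overlap with neighbouring genes touched SIG4 most. On TAIR10.1, 201 of its 1454 exon bases lie under AT5G13720, a protein-coding gene on the opposite strand that was at 54.8 FPKM in replicate 1 and 58.9 in replicate 2. The sources do not state whether counting used strand, and the part of these neighbouring reads in the SIG4 value was not tested. RPOTm overlaps the opposite gene AT1G68980 by 34 exon bases, and AT1G68980 was at 0.650 and 0.438 FPKM. SIG3 and RPOTp overlap annotated genes by 1 and 4 bases, neither of which is in the expression table.

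SIG1 had the highest level of the 9 genes. This sigma factor acts in mature chloroplasts, where its phosphorylation adjusts transcription of genes for the photosystems. It was at 7.96 FPKM in replicate 1 and 8.37 in replicate 2 (mean 8.16 ± 0.291, SD, n = 2), above 78.2% of all genes. SIG1 thus made up 34.6% ± 1.12 of the summed sigma factor FPKM, and it alone of the 9 genes lay in the top 25% of the table. SIG6, which acts broadly in chloroplasts of young seedlings, was at 5.74 in replicate 1 and 4.97 in replicate 2 (mean 5.36 ± 0.546), or 22.7% ± 2.39 of the sigma factor sum. SIG6 was the sigma factor gene that differed most between replicates, but all of its values lay below those of SIG1 and above those of SIG2.

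SIG2, needed for transcription of several plastid tRNA genes, was at 3.72 FPKM in replicate 1 and 3.99 in replicate 2 (mean 3.86 ± 0.186, SD, n = 2). SIG3 and SIG4 are sigma factors with narrow targets, known best for psbN, which encodes a small protein needed to assemble photosystem II, and for ndhF, which encodes a subunit of the plastid NDH complex. SIG4 was at 2.29 and 2.39 FPKM (mean 2.34 ± 0.0718), and SIG3 was at 2.25 and 2.35 (mean 2.30 ± 0.0675). Their ranges overlapped, and SIG4 was 1.02 times SIG3 in each replicate, so these genes were not separated by the spread between replicates. SIG5, which rises under blue light and stress and directs transcription of psbD for a photosystem II core protein, had the lowest level of the family. It was at 1.591 FPKM in replicate 1 and 1.602 in replicate 2 (mean 1.596 ± 0.00780), above 58.1% of all genes. SIG5 made up 6.76% ± 0.0108 of the sigma factor sum, and SIG1 was 5.11 ± 0.157 times as high.

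**Figure D2:**
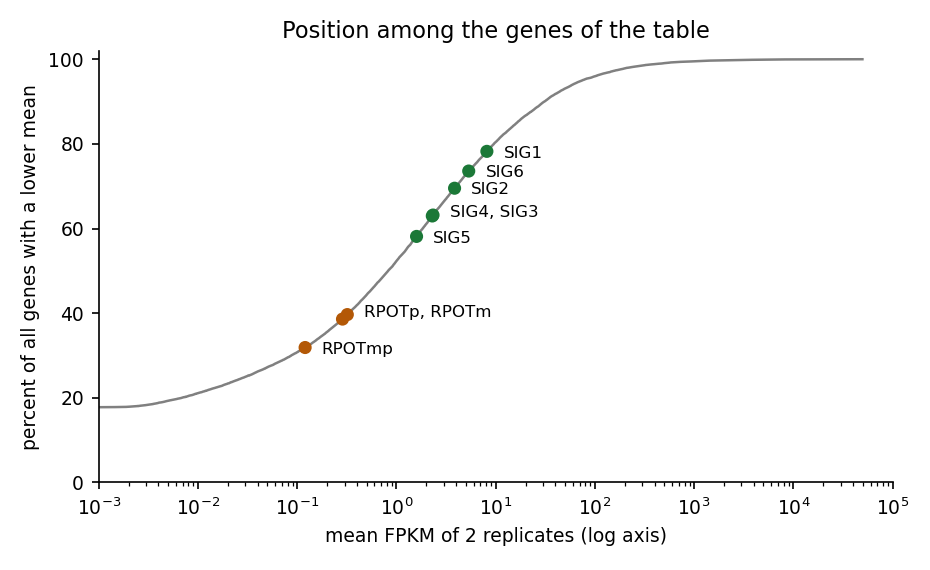
Mean FPKM on a log axis (horizontal) against the percent of all 27411 genes with a lower mean (vertical), with the grey line for all genes and points for the sigma factor genes (green) and phage-type polymerase genes (orange). The sigma factor genes sit from 58.1% (SIG5) to 78.2% (SIG1) and the polymerase genes from 31.9% (RPOTmp) to 39.7% (RPOTp).

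Of the polymerase genes, RPOTp was at 0.351 FPKM in replicate 1 and 0.289 in replicate 2 (mean 0.320 ± 0.0438, SD, n = 2), above 39.7% of all genes. RPOTm, the mitochondrial enzyme, was at 0.275 and 0.297 (mean 0.286 ± 0.0154). RPOTp was the higher of this pair in replicate 1 and RPOTm in replicate 2, so their order was not resolved. RPOTmp, the enzyme with a place in both organelles, was the lowest of the 9 genes at 0.117 and 0.123 (mean 0.120 ± 0.00447). It stayed below the other polymerase genes in each replicate, with RPOTm 2.35 times as high in replicate 1 and 2.41 times in replicate 2. RPOTp made up 44.0% ± 4.58 of the summed polymerase FPKM, RPOTm 39.5% ± 3.42 and RPOTmp 16.6% ± 1.16.

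The order by mean was therefore SIG1, SIG6, SIG2, SIG4, SIG3, SIG5, RPOTp, RPOTm and RPOTmp. Of the 8 neighbouring pairs in this order, 6 had replicate ranges that did not overlap, and SIG4 with SIG3 and RPOTp with RPOTm were the exceptions. Over all 36 pairs of the 9 genes, 34 had separate ranges, including all 18 pairs of a sigma factor and a polymerase gene. These are statements about 2 libraries, with no test. The share of pairs with separate ranges was not counted over all genes, so these counts are not particular to the 9 genes.

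The 9 genes are spread over chromosomes 1, 2, 3 and 5 of TAIR10.1. SIG1 lies at chr1:24097736-24100970, SIG2 at chr1:2703295-2706860, SIG3 at chr3:19960789-19963980, SIG4 at chr5:4429095-4430901, SIG5 at chr5:8157151-8160343 and SIG6 at chr2:15537225-15540139. RPOTp lies at chr2:10248851-10254641, RPOTm at chr1:25934997-25940996 and RPOTmp at chr5:5114761-5121841, and SIG1 and SIG2 alone are on the plus strand.

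The families also differ in length. The sigma factor genes have 4 to 10 exons and exon lengths from 1454 to 2222 bases, and the polymerase genes have 17 to 19 exons and lengths from 3674 to 4300 bases. Over all genes with a known length, the median was 1.73 FPKM in the range of the sigma factor genes (8479 genes, of which 59.4% were above 1) and 0.352 in that of the polymerase genes (573 genes, of which 19.7% were above 1). Set against genes within 20% of its own exon length, SIG1 was above 83.3% of them, SIG6 above 74.5% and SIG2 above 68.4%. SIG5 and SIG4 were in the middle of their length classes (above 52.5% and 51.5%), and SIG3 was above 61.8%. The polymerase genes were below the median of theirs, with RPOTp above 41.4%, RPOTm above 38.4% and RPOTmp above 21.9%. The part of length in the difference between the families was not tested. The GC content of the transcripts ranged from 39.1% (SIG1) to 43.3% (SIG2 and SIG4), and the polymerase genes lay within this range.

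**Figure D3:**
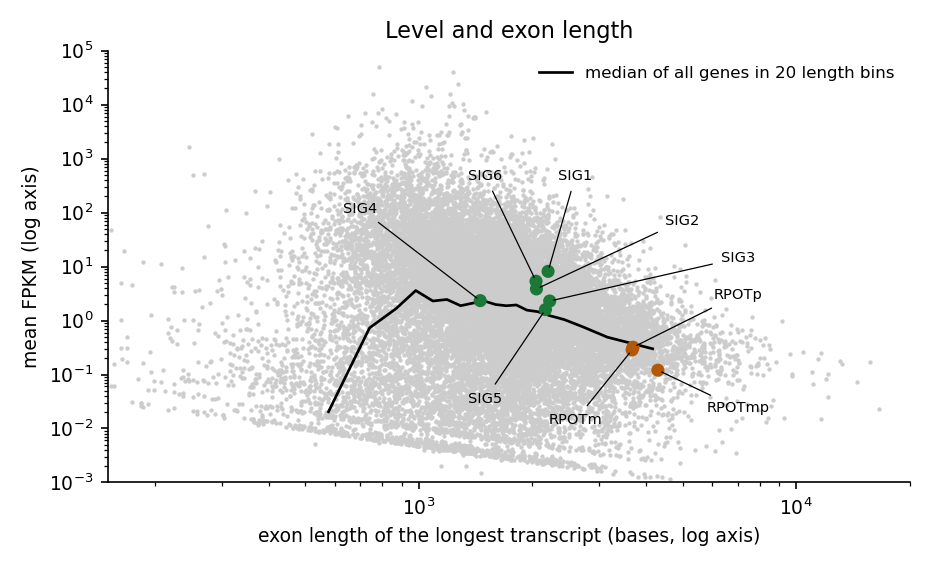
Mean FPKM (vertical) against the exon length of the longest transcript in TAIR10.1 (horizontal), both on log axes, for genes above 0 (grey), sigma factor genes (green) and phage-type polymerase genes (orange), with a black line for the median of all genes in bins of length. SIG1, SIG6 and SIG2 lie above the median line, SIG4 and SIG5 near it and the polymerase genes below it.

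The values of the weakest genes allowed a rough estimate of depth. For 226 genes in replicate 1 the product of FPKM and exon length was 10.7, and for 223 genes in replicate 2 it was 9.47, the most common values at the low end, and these were taken as the worth of a single counted fragment. Multiples of this value were whole to within 0.01 for 22.5% and 22.9% of the genes with a single transcript and an estimate from 0.5 to 200 fragments, so fragment counts were not recovered for most genes, and the numbers that follow are approximate. RPOTmp rested on about 47 fragments in replicate 1 and 56 in replicate 2, RPOTm on 94 and 115, and RPOTp on 121 and 113. The sigma factor genes ranged from 310 (SIG4) to 1629 (SIG1) in replicate 1 and from 366 (SIG5) to 1943 (SIG1) in replicate 2. These estimates are the FPKM values multiplied back by exon length, so they are no separate measure of the families. By them the polymerase genes rested on the fewest fragments. The spread between replicates did not follow this order, with an SD of 13.7% of the mean for RPOTp, 10.2% for SIG6, 5.36% for RPOTm and 3.71% for RPOTmp.

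None of the 9 genes was 1.5-fold or more apart between replicates once 1 was added to each FPKM, as 0.383% of all genes were. The largest log2 ratio of replicate 2 to replicate 1 on this scale was that of SIG6, at -0.18, and the smallest was that of SIG5, at 0.01. SIG6 and RPOTp were lower in replicate 2 and the other members were higher, and these directions were not counted over all genes. The median log2 ratio of the 9 genes was 0.02, beside -0.00086 over all genes of the table. For the 6 sigma factor genes, all above 1 FPKM, it was 0.04, beside -0.07 for all genes with a mean above 1 FPKM, where the SD was 0.17. The pseudocount of 1 makes the ratios of the polymerase genes smaller. Without it the largest log2 ratio was that of RPOTp, at -0.28, and that of SIG6 was -0.21.

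**Figure D4:**
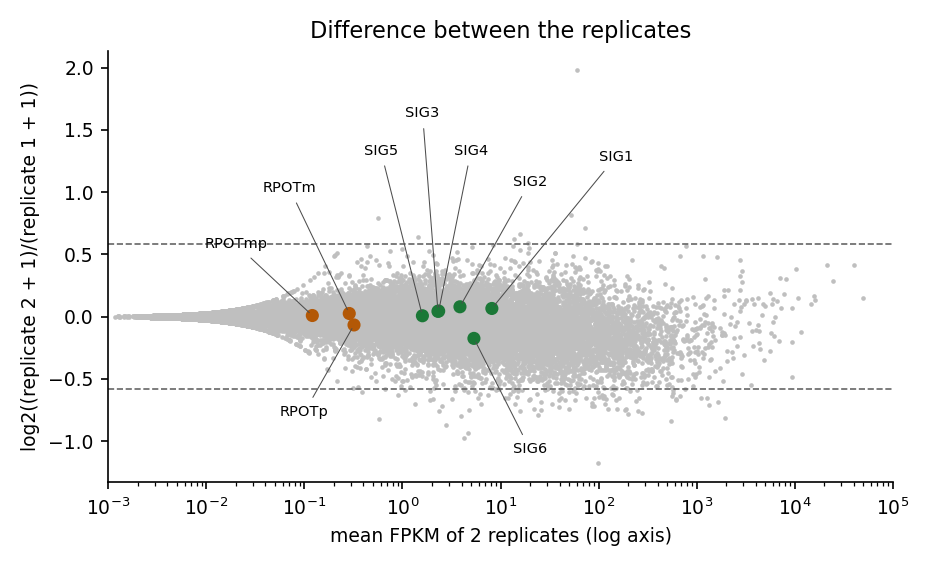
Log2 ratio of replicate 2 to replicate 1 on the scale of FPKM + 1 (vertical) against mean FPKM on a log axis (horizontal), for all genes above 0 (grey), sigma factor genes (green) and phage-type polymerase genes (orange), with dashed lines at 1.5-fold. The 9 genes lie between -0.18 (SIG6) and 0.08 (SIG2), inside the lines.

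The plastid genome supplies the core of PEP, but the table gives no level for it. The subunit genes rpoA, rpoB, rpoC1 and rpoC2 are listed at 0 in both replicates. So are all 10 organelle genes examined as products of these enzymes, among them psbA, psbD and psaA, which PEP transcribes, clpP and accD, read from promoters of the phage-type enzyme, and the mitochondrial genes nad6 and cox1. All 210 organelle genes of the table are listed at 0, including those most active in leaves, so these entries are no measure of expression, and the 9 genes could not be set against the transcripts they help to make.

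Nuclear genes that work beside the sigma factors covered a wider range. The 12 PEP-associated proteins join the core in green tissue and are needed for its activity. Of these genes, 11 were above 1 FPKM, with a median of 4.53, and 4 were above SIG1 and 4 below every sigma factor gene. PAP12, also known as pTAC7, was the highest at 326 FPKM in replicate 1 and 270 in replicate 2 (mean 298 ± 39.3, SD, n = 2). PAP2, a pentatricopeptide repeat protein also known as pTAC2, was the lowest at 0.671 and 0.745 (mean 0.708 ± 0.0519). The exon lengths of this list run from 798 bases (PAP12) to 3425 (PAP2).

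Proteins that act on sigma factors were at both ends of the scale. SIB1, which binds SIG1 and takes part in defence responses, was at 65.8 and 63.8 FPKM (mean 64.8 ± 1.39, SD, n = 2), and 3 of the 4 genes of this list were above 1. DG1, a pentatricopeptide repeat protein that binds SIG6, was the lowest at 0.266 ± 0.0487. The exon lengths of these 4 genes were from 835 to 2471 bases. Among 13 cofactors of organelle transcription, 11 were above 1 FPKM, with a median of 9.45. Of these 13 genes, 7 were above SIG1 and 3 below every sigma factor gene, and their exon lengths were from 972 to 2291 bases. The highest of them was PTAC13, related to the bacterial elongation factor NusG, at 23.9 ± 1.99. The lowest by mean was MTERF15, of the family of mitochondrial termination factors, at 0.366 ± 0.0212. Its replicate range overlapped that of the next gene, so this order was not resolved.

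Large subunits of the nuclear RNA polymerases were low as well. None of their 9 genes was above 1 FPKM, the median was 0.184 and the range ran from 0.0304 for NRPD1, of polymerase IV, to 0.522 for NRPB2, of polymerase II. By mean, 3 of these genes were below every phage-type gene and 4 above every one, though not all of those 4 had replicate ranges apart from that of RPOTp. The exon lengths of the 9 subunit genes were from 4006 to 6517 bases. The 6 genes for organelle DNA replication, with exon lengths from 2728 to 3650, all lay between the 2 families described here, with a median of 0.612 FPKM. POLIA, an organelle DNA polymerase, was the lowest at 0.410 ± 0.0124 (SD, n = 2) and GYRB1, a gyrase subunit, the highest at 1.27 ± 0.0500. None of the genes of these lists differed at least 1.5-fold between replicates on the scale of FPKM + 1, which the lowest of them could not do.

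**Figure D5:**
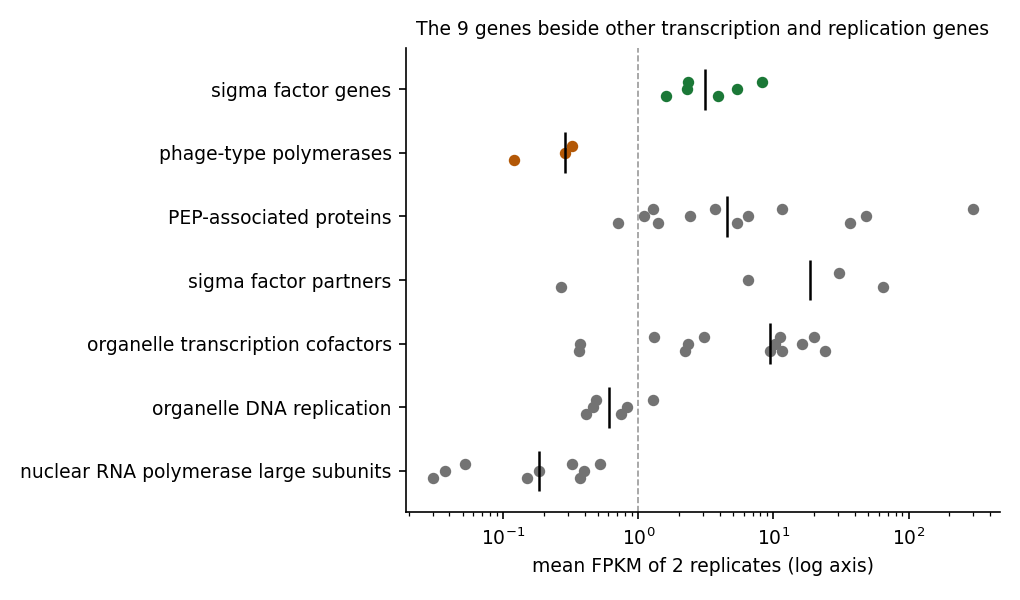
Mean FPKM on a log axis for each gene of 7 groups (rows), with sigma factor genes in green, phage-type polymerase genes in orange, other lists in grey, a black line at each median and a dashed line at 1 FPKM. The medians run from 0.184 for the nuclear polymerase subunits to 18.6 for the 4 sigma factor partners, with the sigma factor genes at 3.10 and the phage-type genes at 0.286.

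The bases from 250 before to 50 after the start of each gene were searched on both strands for 4 motifs. The G-box CACGTG was in none of the 9 promoters, and in 7.68% of all 27444 promoters of nuclear protein-coding genes. The I-box GATAAG was in 3 (SIG3, SIG6 and RPOTm), beside 14.6% of all promoters. The evening element AAAATATCT, bound by clock proteins, was in those of SIG3 and RPOTmp, beside 2.82%. TATAAA was in 5 (SIG1, SIG3, SIG4, SIG5 and RPOTp), beside 52.1%. These are matches of letters in TAIR10.1 and no measure of binding.

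The tissue label was checked against marker genes. The leaf genes RBCS1A, CAB1 and CA1 had means from 1884 to 40786 FPKM. Of 3 root markers, PYK10 was at 7.50 ± 0.678 (SD, n = 2), above 77.3% of all genes. RHS2 was at 0.353 and EXPA7 was listed at 0. Of 3 seed storage genes, CRA1 was at 0.00564 and CRC and SESA3 were listed at 0. The table summed to 997893 FPKM in replicate 1 and 972478 in replicate 2.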

How the data were processed

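The authors aligned paired-end reads to TAIR10 with TopHat (2.0.9 in the submitters' notes) and used Cufflinks 2.1.1 for the deposited FPKM values of coding genes. Annotation release, strand use and the treatment of reads with several matches are not stated in the sources. Replicates were assigned by title. For each gene the mean and SD (n = 2) were computed. Replicate ratios are log2 of FPKM with a pseudocount of 1, with no filter on low values. The 9 genes, the 67 genes of the other lists, the motifs and the rule for naming list genes (highest and lowest of each list, and any gene 1.5-fold apart) were chosen with earlier results of these data known. Markers and organelle genes are named as checks. No gene was named for a pattern like that of a member, since 2 replicates of 1 condition hold none. Gene models, coordinates and sequences came from RefSeq on TAIR10.1 (26714 of 27411 IDs matched, 97.5%), whose transcripts may differ from those the authors used. No protein sequences were used here. No test was made. Levels without a replicate, other pseudocounts, TPM scaling, and other gene sets were tried as alternatives. Of the steps, only the call of genes 1.5-fold apart between replicates was run on simulated data. Its changes were set in genes higher than most of the 9 genes, with less spread between replicates than these data have. Python 3.11.15, numpy 2.4.6, pandas 2.3.3, Biopython 1.88 and matplotlib 3.10.9 were used.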

Additional observations from a re-analysis of the deposited data

How the results depend on the processing

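No paired analysis was possible because 1 condition with 2 replicates has values here. The count of genes above 1 FPKM was 6 under every alternative run (each replicate alone, TPM scaling, both replicates above 1), and 0 genes were 1.5-fold apart with pseudocounts of 0.1 and 0.01, with ratios centred on all genes above 1 FPKM, and for the genes above 1 FPKM alone. The median log2 ratio ranged over these from 0.0428 (genes above 1 FPKM alone) to 0.0934 (centred ratios). All of these were above the 0.0244 of the main setting. The median of the polymerase genes was 0.275 to 0.289 FPKM in single replicates. When the top 25% was set over genes above 0 only, 0 of the 9 genes lay in it, in place of 1, because that boundary is higher. As TPM, SIG5 was at 1.62, which is more than its SD above 1.596. That SD was only 0.489% of the mean, so passing it says little about SIG5. The share of SIG5 was 6.75% to 6.77% in single replicates. The polymerase genes rest on the fewest fragments, and with 2 replicates the SD itself is poorly known.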
